A study of Homo sapiens with 6 samples.

Results

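The KEAP1-NRF2 circuit is described here through 9 genes in RNA sequencing of human cells. KEAP1 holds the transcription factor NRF2 (gene NFE2L2) for degradation, and NQO1, HMOX1, GCLC, GCLM, TXNRD1, SRXN1 and OSGIN1 are widely used targets of NRF2. The genes were chosen by name, with their group means in these data already known, from a table of 17381 entries. All 9 were listed, each once. Because the choice rests on the comparison of the 2 groups, the differences of these 9 genes are given as a description with no test.

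The cells are labelled Hep3B, a human liver carcinoma line, and the series calls all of them resistant to sorafenib, which blocks several kinases and is given in liver cancer. The 3 control libraries are labelled wildtype (WT). The titles (SKO) and the series text place the other 3 libraries in a STIM1 knockout group, while their genotype field reads STIM1 KO, STIM2 KO and STIM3 KO. The treatment field reads none in both groups. The labels do not say whether the knockout is 1 clone or whether libraries came from separate cultures, so errors measure the spread between these libraries, which may be technical.

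Under resting conditions KEAP1 joins NRF2 to the CUL3 ubiquitin ligase, and NRF2 is destroyed. Oxidants and electrophiles modify KEAP1, NRF2 then gathers in the nucleus with a small MAF protein, and binds antioxidant response elements in its target genes. The control lies mainly on the protein, so the NFE2L2 transcript is not a measure of NRF2 activity. In liver cancer the circuit is known for drug detoxification and for protection from ferroptosis.

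The deposited means were resolved into whole reads per library, called A, B and C within each group because they carry no sample number. The libraries held 11925842 to 16223940 reads. Levels are read counts divided by the authors' size factors (normalized counts), log2 changes are those of limma on log2(normalized count + 1) over all genes, with their standard error (SE), and a positive change means higher in the libraries labelled knockout. "Rose" and "fell" are used only of genes outside the 9 that the authors' deposited table gives an adjusted p under 0.05. STIM1, the check of the label, had 1047, 972 and 836 normalized counts in control and 1454, 1439 and 1422 in the libraries labelled knockout. Its transcript was therefore higher, not lower, under the knockout label. A total per gene cannot locate reads within the gene, so it does not decide whether the gene was edited. Of 10 liver markers 7 were listed, and AFP, ALB and APOA1 each had a mean under 1 in both groups. The labelled cell type is therefore not borne out by its defining markers. Summed markers of other cell types were lower in the libraries labelled knockout, from 2808–2938 to 143–419 for 7 fibroblast markers, mostly through THY1, from 127–165 to 19.5–22.9 for 5 endothelial markers, mostly through PECAM1 while CDH5 averaged 9.18 and 12.3, and from 83.9–164 to 45.2–64.8 for 7 blood and immune markers, while the 7 liver markers summed to 216–261 and 776–893, mostly HNF4A. The part of these shifts in the values below was not tested, and in bulk RNA fewer cells of a type and less RNA per cell cannot be told apart.

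Short stretches of promoter are shown for the members whose 300 bases around the start (250 before, 50 after) held a core of the antioxidant response element, because this is the site through which NRF2 acts. The letters searched on both strands were TGACNNNGC and TGANTCAGC, which overlap where the fourth base is C and the next letters are TCA. RefSeq (GRCh38.p14) gave 11 windows for 8 members, HMOX1 having no entry, and 5 windows of 4 members held 7 matches, of which 1 per window is shown. The other matches were TGACGGAGC over the first start of TXNRD1 and TGACACGGC at the second start of KEAP1. Over 35116 promoters of this length, 13.3% held the first core and 1.36% the second, and the first or the second core stood in 4920 of them. The matched letters are in capitals, with 10 bases on each side, each read 5′ to 3′ on the strand that carries the core.
GCLM, chr1:93909446-93909474, plus strand: tggaagacaaTGACTAAGCagaaatcgta
TXNRD1, first start, chr12:104215670-104215698, plus strand: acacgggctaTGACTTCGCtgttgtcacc
TXNRD1, second start, chr12:104286920-104286948, minus strand: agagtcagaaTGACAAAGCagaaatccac
OSGIN1, chr16:83953131-83953159, minus strand: ttcataagcgTGAGTCAGCaggggcccgt
KEAP1, second start, chr19:10502784-10502812, plus strand: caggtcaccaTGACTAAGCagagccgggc
The GCLM and KEAP1 stretches carry the same 9 letters TGACTAAGC. The windows of NFE2L2, GCLC, NQO1 and SRXN1 held neither core, which says only that these letters are not in this window.

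KEAP1 (chromosome 19, 10486125 to 10503356, GRCh38, minus strand), the sensor and inhibitor of NRF2, was not detected in the libraries labelled knockout. It had 352, 349 and 385 normalized counts in control libraries A, B and C. The libraries labelled knockout had 0 reads each, against 1133 reads over the control libraries. With a floor of 3 reads over the group, KEAP1 was at least 352-fold lower than its control mean of 362 ± 19.7 (SD, n = 3). This floor covers counting error only and takes no account of PCR duplicates. Of 8065 genes with a control mean of at least 300, 14 (0.174%) had 0 reads in all 3 libraries labelled knockout. This cutoff was not fixed beforehand, and KEAP1 was itself chosen on this contrast, so the share is a description only. By Euclidean distance over the 6 libraries, the profiles most like KEAP1 among genes with a mean of at least 100 were those of KCNG1, a potassium channel subunit, at 0.15 log2 units, ADAM19, a membrane metalloprotease, at 0.29 and FNDC4 at 0.29, all with 0 reads in the libraries labelled knockout. This likeness follows largely from the 0 reads and a similar control mean, so it is no separate result.

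NFE2L2 (chromosome 2, 177230303 to 177265131, minus strand), the NRF2 gene, had nearly the same level in both groups. Control libraries had 2240, 2259 and 2249 normalized counts and libraries labelled knockout 2343, 2244 and 2371. The groups overlapped, and the log2 change was 0.04 (SE 0.03). The profiles nearest to NFE2L2 were those of TNFRSF10B, a death receptor, at 0.04 log2 units, GCSH, of the glycine cleavage system, at 0.04, and ZHX1 at 0.05.

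**Figure D1:**
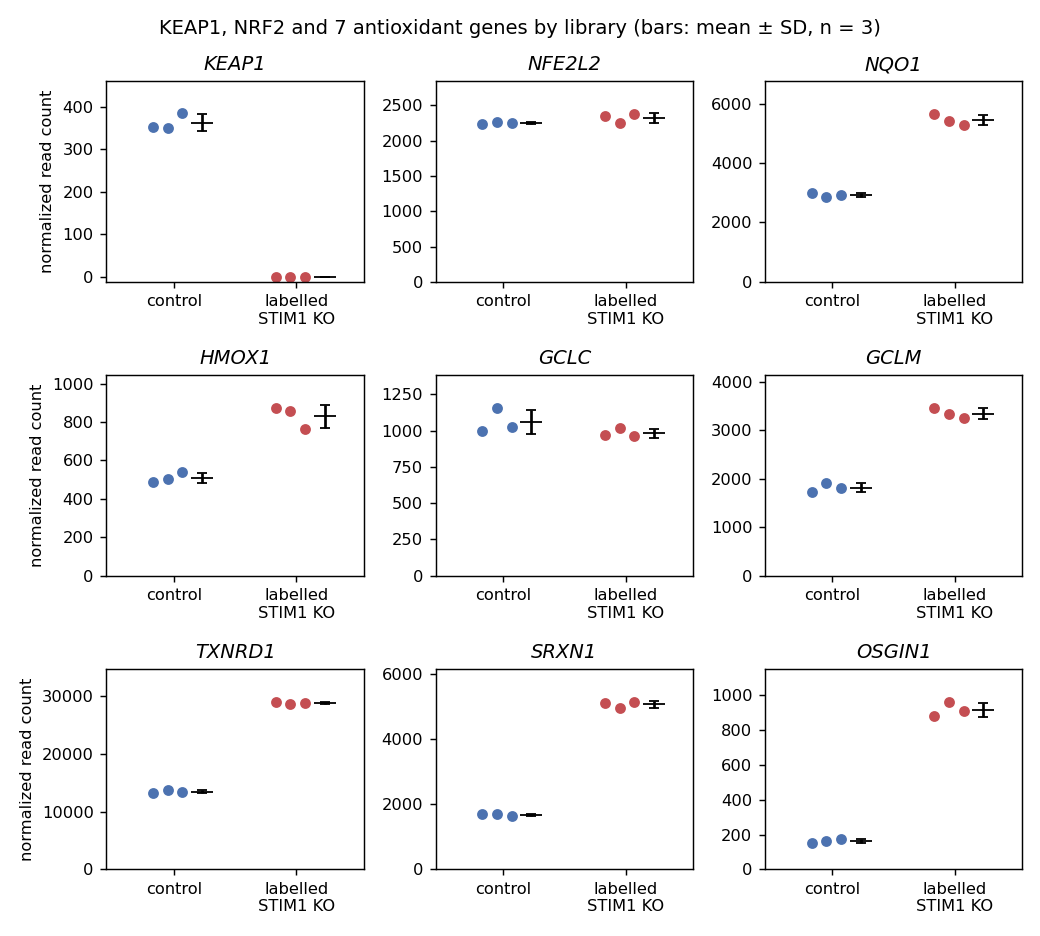
Normalized read counts (vertical axes, from 0 or, for KEAP1, just below it, each panel with its own scale) of the 9 genes in the 3 control libraries (blue) and the 3 libraries labelled STIM1 knockout (red), with the mean and SD in black. KEAP1 lies at 0 in all 3 libraries labelled knockout, NFE2L2 and GCLC overlap between the groups, and the other 6 genes are higher in every library labelled knockout than in any control library.

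OSGIN1 (chromosome 16, 83953240 to 83966332), an oxidative stress gene known as a growth inhibitor, showed the widest gain of the 9. Control libraries had 153, 162 and 172 normalized counts, and libraries labelled knockout had 881, 960 and 908. Every library labelled knockout lay above every control library, with means of 162 ± 9.43 and 917 ± 40.0 (SD, n = 3) and a log2 change of 2.49 (SE 0.07).

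The thioredoxin branch of the circuit came next. SRXN1 (chromosome 20, 646615 to 653200), sulfiredoxin, which repairs over-oxidised peroxiredoxins, had 1693, 1705 and 1634 normalized counts in control and 5115, 4937 and 5133 in the libraries labelled knockout. Its log2 change was 1.59 (SE 0.03), with no overlap. TXNRD1 (chromosome 12, 104215779 to 104350307), the cytosolic thioredoxin reductase that recharges thioredoxin with NADPH, had 13217, 13752 and 13295 in control and 28905, 28626 and 28681 in the libraries labelled knockout. Its log2 change was 1.10 (SE 0.02), and the coefficient of variation over the 3 libraries labelled knockout was 0.514%.

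NQO1 (chromosome 16, 69709401 to 69726560), a quinone reductase and the usual readout of NRF2, had 2984, 2849 and 2916 normalized counts in control and 5633, 5419 and 5287 in the libraries labelled knockout. Its log2 change was 0.90 (SE 0.03), with the groups well apart. HMOX1 (chromosome 22, 35381096 to 35394207), the inducible enzyme that opens haem, had 486, 505 and 538 in control and 872, 856 and 762 in the libraries labelled knockout. Its groups did not overlap, and with a log2 change of 0.70 (SE 0.06) it gained least of the 6 genes that were higher.

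The subunits of glutamate-cysteine ligase, which makes the first and rate-limiting step of glutathione synthesis, differed from each other. GCLM (chromosome 1, 93885199 to 93910370), the modifier subunit that raises the enzyme's efficiency, had 1729, 1899 and 1815 normalized counts in control and 3449, 3334 and 3240 in the libraries labelled knockout, a log2 change of 0.88 (SE 0.04). GCLC (chromosome 6, 53497341 to 53545101), the catalytic subunit, had 999, 1153 and 1022 in control and 966, 1017 and 961 in the libraries labelled knockout. Its groups overlapped, with a log2 change of −0.11 (SE 0.06). Per kilobase of the deposited gene length, the ratio of GCLM to GCLC was 1.04, 0.985 and 1.06 in control and 2.13, 1.96 and 2.02 in the libraries labelled knockout. This ratio averaged 1.03 ± 0.0393 and 2.04 ± 0.0886 (SD, n = 3), without overlap.

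Among the 9 genes, 6 were higher and 1 lower by the authors' adjusted p, and 7 had groups that did not overlap. Over all entries 25.7% were called higher and 28.8% lower, and the groups did not overlap in 63.0% of 17380 genes. At a mean over both groups of at least 10, which all 9 genes exceed, 34.2% of 12811 genes were called higher and 36.7% lower. These shares stand beside the members' counts only as a background, since the members were chosen on this contrast. The median limma log2 change was 0.88 over the 9 genes and −0.04 over 15254 genes with a mean of at least 1. These medians are a description too, for the same reason. The median of the 9 genes also joins the inhibitor KEAP1, NFE2L2 and the targets, which differ in role.

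Per kilobase of gene length, the order of levels changed between the groups. In control, TXNRD1 stood highest at 3151 normalized counts per kilobase, followed by NQO1 at 1157, SRXN1 at 663, NFE2L2 at 628, HMOX1 at 328, GCLM at 284, GCLC at 277, KEAP1 at 119 and OSGIN1 at 84.5. Of these neighbours in the order, only GCLM and GCLC overlapped between libraries. In the libraries labelled knockout the order was TXNRD1 at 6746, NQO1 at 2160, SRXN1 at 2002, NFE2L2 at 647, HMOX1 at 534, GCLM at 523, OSGIN1 at 477, GCLC at 257 and KEAP1 at 0. There HMOX1 overlapped with GCLM and also with OSGIN1, which had moved from the lowest place to above GCLC.

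Genes around KEAP1 on chromosome 19 were lower in the libraries labelled knockout. Of 54 genes within 1 Mb of KEAP1 with a mean of at least 10, 41 fell, 4 rose and 9 did not pass, where 36.7% of all genes at that mean fell. The median log2 change of their group means plus 1 was −1.12. Among them, 28 had a change between −1.5 and −0.8. This range was not fixed beforehand, and no share of all genes within it is given here. The neighbours of the other 8 genes, 8 to 27 each, had medians from −0.26 (NQO1) to 0.13 (GCLM), and over the 12811 genes averaging 10 or more the median was −0.02. Within 3 Mb the median around KEAP1 was −0.85 over 135 genes. Only 2 of the 54 neighbours fell below 5% of their control level, S1PR5 and SHFL, both named after their values were seen.

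S1PR5, a sphingosine 1-phosphate receptor, is the next gene after KEAP1, 9385 bases away. It had 104, 72.3 and 105 normalized counts in control and 1 read in all over the libraries labelled knockout. The ratio was 273, and its 95% interval for counting error ran from 48.6 to 10825. The genes on either side of this pair kept reads. PDE4A, a cyclic AMP phosphodiesterase 16493 bases before KEAP1, fell from 823 ± 43.5 to 562 ± 36.0 (SD, n = 3). ATG4D, an autophagy protease 25931 bases beyond S1PR5, averaged 186 ± 21.0 and 175 ± 12.6, with overlapping groups, and the authors' deposited table gives it an adjusted p of 0.784. All 3 were named after their values were seen. SHFL, an interferon-induced inhibitor of translation, fell from 181 ± 4.34 to 2.22 ± 2.39 (SD, n = 3), and PDE4A lies between it and KEAP1.

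**Figure D2:**
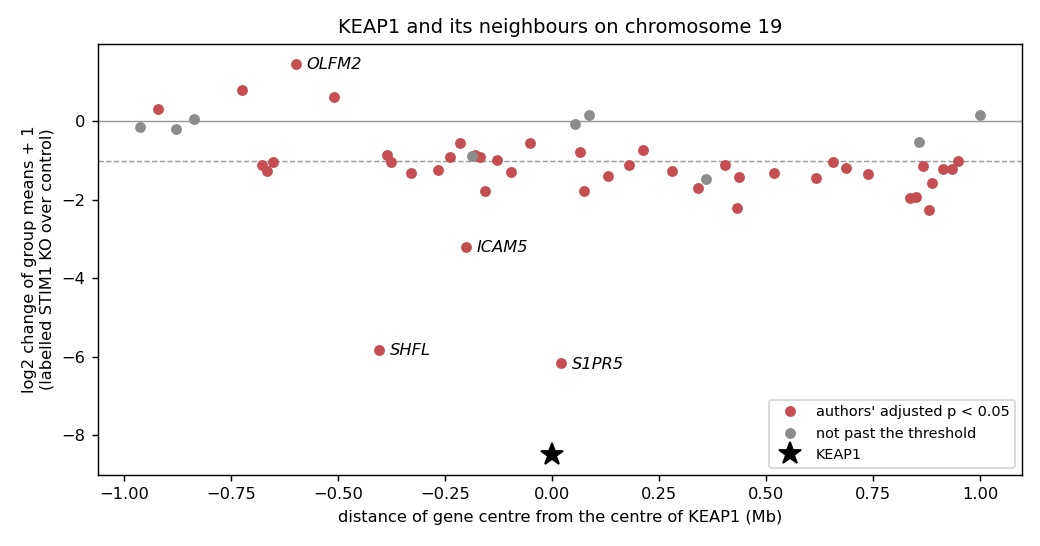
Log2 change of group means plus 1 (vertical axis, libraries labelled STIM1 knockout over control) of the 54 genes within 1 Mb of KEAP1 against the distance of their centres from that of KEAP1 in Mb. Red points passed the authors' adjusted p of 0.05, grey points did not, the star is KEAP1 and the dashed line marks a log2 change of −1. Most neighbours lie near −1, with a median of −1.12, and KEAP1, S1PR5 and SHFL lie far below them.

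Other genes of the pathway were taken from 9 lists, of 137 genes without the 9 members, of which 134 were listed and 128 had a single entry. Over these 128 genes, 55 rose (43.0%), 41 fell (32.0%) and 32 did not pass. Over all entries, including genes with few reads, the shares were 25.7% and 28.8%. At a mean of at least 10, 45.5% of 121 pathway genes rose and 33.1% fell, beside 34.2% and 36.7% of 12811 genes. The lists were chosen with earlier results of these data known, so these shares are a description only and no test. The median log2 change of group means plus 1 was 0.10 over the 121 genes with a mean of at least 10. Genes in more than 1 list are counted once here and under each list below.

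Of 16 regulators of NRF2 degradation, 9 rose and 5 fell, with a median of 0.13. CUL3, the scaffold of the ligase that KEAP1 serves, fell from 1623 ± 63.2 to 1487 ± 59.3 (SD, n = 3). Its log2 change was −0.13 (SE 0.04), and the authors' deposited table gives an adjusted p = 0.0243. AMER1, a KEAP1-binding protein of the WNT pathway, rose from 318 ± 15.7 to 682 ± 13.9. TRIM21, a ubiquitin ligase that acts on the autophagy receptor p62, rose from 226 ± 17.3 to 402 ± 37.2. TRIM16, a scaffold reported to bind NRF2, rose from 2465 ± 33.1 to 5023 ± 53.0, and TRIM16L, of the list of other reported targets, from 2435 ± 42.5 to 5414 ± 81.3. TRIM16 and TRIM16L are near copies, and the division of reads between them is uncertain. SQSTM1, the gene of p62, which draws KEAP1 into autophagy, has a second entry on a patch scaffold and is uncertain. Summed over both entries it averaged 276 ± 35.0 and 371 ± 37.3.

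Transcripts of the 3 small MAF genes, whose proteins bind DNA together with NRF2, rose. MAFK had 1520, 1553 and 1627 normalized counts in control and 3334, 3362 and 3416 in the libraries labelled knockout, and rose with a log2 change of 1.11 (SE 0.04). MAFF, with 190.3, 175 and 198 in control and 331, 261 and 312 in the other group, rose too. MAFG rose from 1911 ± 120 to 2111 ± 45.6 (SD, n = 3), for which the authors' deposited table gives an adjusted p of 0.0108. BACH1, which competes with NRF2 for the same sites and represses HMOX1, fell from 1014 ± 42.6 to 890 ± 33.6, with −0.19 (SE 0.05) on the log2 scale. The related factor NFE2L1 fell from 5000 ± 83.3 to 4231 ± 123, and NFE2, the blood member of the family, from 405 ± 21.3 to 156 ± 14.6. ATF3, a stress factor reported to bind NRF2, rose from 274 ± 16.7 to 545 ± 7.74. Of the 13 partners and rivals, 5 rose and 6 fell, with a median of −0.12.

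The joint list of glutathione transferases and conjugate pumps held more gains than losses, with 11 risen and 3 fallen of 17 and a median of 0.43. GSTP1, the pi-class transferase, had 3591, 3371 and 3402 normalized counts in control and 9439, 9182 and 9198 in the libraries labelled knockout. It rose with a log2 change of 1.42 (SE 0.03). GSTM3 rose from 1170 ± 22.3 to 3500 ± 97.4 and GSTM1 from 492 ± 43.5 to 1332 ± 47.9 (SD, n = 3), though mu-class genes are similar in sequence and may share reads. The 3 that fell, named after their values were seen, were MGST1 (means 3562 and 1490), GSTZ1 (334 and 157) and the pump ABCC3 (3044 and 2069). Of the other pumps among the 17, ABCC4 and ABCC5 rose and ABCC2 did not pass. The pump ABCC1, likewise named, has 2 entries and is outside the 17. Summed over both, it averaged 813 ± 26.8 and 519 ± 36.9.

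Genes that supply and recycle glutathione were divided, with 6 risen and 6 fallen of 18 and a median of −0.08 over 17 with a mean of at least 10. SLC7A11, the cystine importer and a known NRF2 target, had 1202, 1299 and 1107 normalized counts in control and 90.5, 95.7 and 109 in the libraries labelled knockout. It fell with a log2 change of −3.60 (SE 0.09), against the direction of GCLM and NQO1. CBS, which commits homocysteine to cysteine synthesis, fell from 249 ± 2.16 to 3.37 ± 0.857 (SD, n = 3). The genes that rose in this list, outside the naming rule and named after their values were seen, included the next enzyme of that route and the partner of the importer. CTH, which releases cysteine from cystathionine, rose from 506 ± 13.2 to 1465 ± 69.2, and SLC3A2, the chain that carries SLC7A11 to the membrane, from 4401 ± 45.0 to 7181 ± 181. The amino acid carrier SLC1A4 rose from 421 ± 6.38 to 988 ± 59.6, and glutathione reductase (GSR) from 2528 ± 130.3 to 3360 ± 109. GGT1, which cleaves glutathione outside the cell, rose from 567 ± 28.6 to 1538 ± 36.5, though it has near copies that may share its reads.

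In the thioredoxin system beyond TXNRD1 and SRXN1, 5 of 15 genes rose and 8 fell, with a median of −0.13. TXNIP, the inhibitor of thioredoxin, had 10765, 10941 and 11246 normalized counts in control and 1095, 1158 and 1237 in the libraries labelled knockout, and fell with a log2 change of −3.24 (SE 0.04). SESN3, a sestrin, rose from 422 ± 37.2 to 932 ± 15.4, and MSRB1, a methionine sulfoxide reductase, fell from 508 ± 48.6 to 283 ± 40.8 (SD, n = 3). Thioredoxin itself (TXN), named after its values were seen, rose from 3751 ± 154 to 4367 ± 65.7, and PRDX1, a peroxiredoxin likewise named, fell from 8434 ± 32.0 to 7708 ± 151.

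Of 14 NADPH-supplying genes, 7 rose and 4 fell, with a median of 0.16. IDH2, the mitochondrial isocitrate dehydrogenase, fell from 1180 ± 69.8 to 669 ± 50.7 (SD, n = 3), and PGLS from 377 ± 23.3 to 267 ± 16.9. Of 10 haem and iron genes, 4 rose and 0 fell at this threshold in the authors' deposited table, with a median of 0.13 over 9. The transferrin receptor TFRC rose from 16723 ± 674 to 43553 ± 271, the porphyrin transporter ABCB6 from 1046 ± 23.9 to 1920 ± 72.3 and FECH, which inserts iron into haem, from 668 ± 41.8 to 951 ± 52.6. The ferritin chains FTL and FTH1, reported NRF2 targets named after their values were seen, averaged 13986 ± 123 and 13770 ± 238, and 10483 ± 295 and 10796 ± 314, with overlapping groups.

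Drug and aldehyde enzymes reported as NRF2 targets had the lowest median of the 9 lists. Of 17, 3 rose, 8 fell and 6 did not pass, with a median of −1.14 over the 13 with a mean of at least 10. AKR1C3, an aldo-keto reductase, had 1473, 1479 and 1574 normalized counts in control and 5.72, 6.84 and 9.51 in the libraries labelled knockout. AKR1C1 fell from a mean of 1478 to 1 read in all, and AKR1C2 from 101 ± 13.3 to 4.97 ± 2.28 (SD, n = 3). These 3 genes are similar in sequence, so the division of reads among them is uncertain. The 3 gains in this list, picked out once their values were known, were UGDH, which makes the sugar donor for glucuronidation, from 2477 ± 135 to 3568 ± 49.4, the quinone reductase NQO2 from 1116 ± 36.3 to 1433 ± 48.4 and PTGR1 from 4057 ± 112 to 4750 ± 154. EPHX1 and CBR1, named after their values were seen, averaged 1828 ± 57.5 and 1832 ± 73.8, and 573 ± 9.96 and 592 ± 84.8, with overlapping groups. NQO1 and the aldo-keto reductases therefore went in opposite directions. Of 10 other reported targets, 6 rose and 1 fell, with a median of 0.30 over 9. NAMPT, which salvages NAD, rose from 2227 ± 36.0 to 2909 ± 74.5, and the fallen gene was the pannexin channel gene PANX2, from 503 ± 35.0 to 245 ± 32.7.

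**Figure D3:**
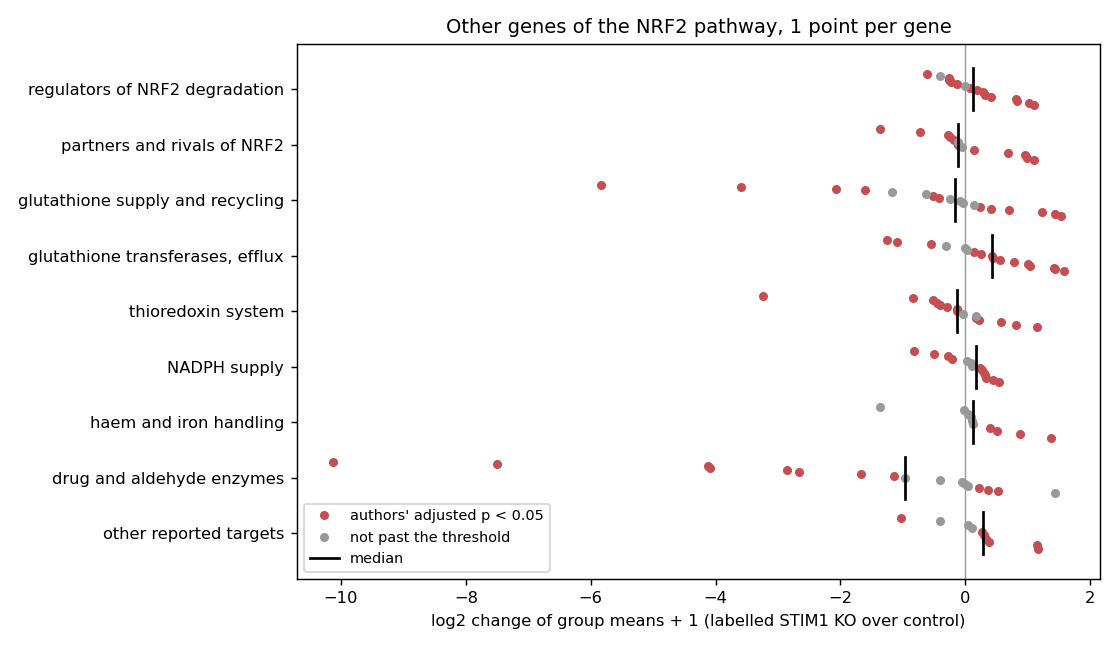
Log2 change of group means plus 1 (horizontal axis, libraries labelled STIM1 knockout over control) of the other pathway genes with a single entry, 1 point per gene in each of the 9 lists, without the 9 members. Red points passed the authors' adjusted p of 0.05, grey points did not, and black bars are medians over all points of a list, including genes with few reads. Most glutathione transferases lie to the right of 0, and the aldo-keto reductases and SLC7A11 far to the left.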

How the data were processed

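Human cells were profiled by RNA sequencing in 3 control libraries and 3 labelled STIM1 knockout. The authors deposited, per the file headers, a mean signal per gene and group (counts divided by size factors), a fold ratio, a log2 fold change and p-values with their adjusted form. The aligner and counter are not given in the sources used here. The submitters' processing notes name GRCm 38 and mm 10, which are mouse builds, while the chromosome accessions in the table are human GRCh38. No counts per library were given, so the count test planned could not be run. Instead, the reads of each library were worked out from the 15 digits to which the means are given, a step chosen after seeing the data, with search windows that favour a small spread between libraries. This settled 17380 of 17381 entries, with several solutions for 0 genes in control and 35 in the other group, and none of the 9 members among them. The recovery was tested on simulated reads with a small spread between libraries. SDs come from these reads. limma 3.58.1 (R 4.3.3) was fitted over all genes on log2(normalized count + 1). Calls are the authors' adjusted p under 0.05. Named genes were the members, STIM1, up to 3 called genes of each list with the largest log2 change (mean of at least 50 in the higher group, no overlap), 7 set genes (CUL3, MAFF, MAFG, MAFK, BACH1, NFE2L1, SQSTM1) and, for KEAP1 and NFE2L2, the 3 nearest profiles. Others are marked in the text, and some genes under this rule are not reported here. Members and lists were chosen with earlier results of these data known.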

Additional observations from a re-analysis of the deposited data

How the results depend on the processing

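Of the 194 values recomputed under other settings, 177 moved by less than their spread or by less than 1.5 times for a count, and 17 moved more. Some of the 177 could not move. The 9 genes have a single entry each, so keeping only the main-chromosome entry changed nothing. A higher minimum mean leaves their fitted log2 changes as they are. KEAP1 had 0 reads in every library labelled knockout, so leaving any of these out did not move it. None of the log2 changes of the 9 genes changed sign, while the medians around HMOX1 (−0.15), GCLC (0.08), TXNRD1 (0.08) and OSGIN1 (−0.08) did in the wider window, and that of HMOX1 also with a higher minimum mean. The log2 change of KEAP1 depends on the pseudocount, at −9.50 with 0.5 and −6.20 with 5, and no value can be given from the authors' own log2 because the mean is 0. TXNRD1 had a log2 change of 1.13 under upper-quartile scaling. With a change of at least 1 on the log2 scale required as well, 1080 genes were higher and 1899 lower, and among the other pathway genes 15 and 17. The median around KEAP1 was −0.85 within 3 Mb. Within 3 Mb the medians were −0.10 for NQO1, 0.14 for HMOX1, −0.15 for GCLC, −0.077 for TXNRD1, 0.10 for SRXN1 and 0.19 for OSGIN1. With a mean of at least 100 they were −0.40 for NQO1, 0.11 for HMOX1 and −0.12 for OSGIN1. The cause was not tested. Leaving out each library in turn gave log2 changes of −8.53 to −8.46 for KEAP1, 0.03 to 0.07 for NFE2L2, −0.15 to −0.04 for GCLC, 0.85 to 0.91 for GCLM, 0.66 to 0.76 for HMOX1, 0.88 to 0.92 for NQO1, 1.09 to 1.12 for TXNRD1, 1.57 to 1.61 for SRXN1 and 2.45 to 2.53 for OSGIN1. By limma it called 4644 to 4713 genes higher and 5177 to 5318 lower, and 54 to 60 and 40 to 44 of the other pathway genes. With all libraries kept, limma called 4925 genes higher and 5506 lower, and 56 and 43 of the other pathway genes. No paired analysis was possible because the deposited columns are group means and the recovered libraries carry no replicate number. Depth limits KEAP1 only to its floor of 3 reads over the group.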
